A study of Mus musculus with 5 samples.

Results

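The genes described here are 10 genes of the kinetochore and the centromere, Cenpa, Cenpe, Cenpf, Ndc80, Nuf2, Spc24, Spc25, Knl1, Mad2l1 and Sgo1. They were chosen by name, and every peak that the deposited table assigns to one of these symbols was taken, which gave 38 of 85275 peaks. The main peak of a gene is the one with the highest mean over the 4 H3K4 libraries, so there are 10 main peaks. Of the others, 18 reached 1 CPM (reads of a peak per 1e6 reads in all peaks of the library) in at least 2 of these libraries and 10 did not. The data are CUT&RUN profiles of chromatin enriched for methylated lysine 4 of histone H3 (H3K4), a method that frees the DNA around the mark with a nuclease guided by an antibody. The cells were mouse cardiomyocytes isolated from neonatal hearts on postnatal day 1 and treated for 72 h. Of the 5 libraries, 2 came from cells given a control short hairpin RNA (labelled Control-ShRNA-IL), 2 from cells given one against the H3K4 demethylase gene Kdm5b (Kdm5b-ShRNA-IL), and 1 was a negative control from cells with the control hairpin. The mouse strain, the methylation state recognised, the antibody of the negative control, the meaning of IL and the means of hairpin delivery are not given in the sources used here. Labels of cell type carry a different postnatal number (P1 to P5) for each sample, and if that were the age it could not be told apart from the treatment. Libraries are called 3 and 4 after their columns, since the sample titles number them otherwise.

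The kinetochore is the protein assembly that ties each chromosome to the spindle during mitosis. It is built on nucleosomes that carry CENP-A, the centromeric form of histone H3, from which an inner layer of CENP proteins leads to the outer layer that holds microtubules. Unattached kinetochores produce the inhibitor that holds back anaphase, and shugoshin protects the cohesin that keeps sister centromeres together. Most of these genes are transcribed mainly in G2 and mitosis, and mammalian cardiomyocytes largely leave the cell cycle soon after birth. Trimethylated H3K4 marks the starts of active genes, and Kdm5b removes methylation from H3K4. The state profiled here is not given, so this need not hold for the signal described.

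The promoters are shown first because trimethylated H3K4 is known to gather around gene starts. RefSeq promoter windows of build GRCm38.p6 were at hand for 9 of the 10 genes, all but Spc24. Each window runs from 250 bases before to 50 bases after the annotated start. The peaks are on GRCm39, so whether a window lies inside its peak was not computed. Motifs were searched on both strands: the cell cycle genes homology region (CHR, TTTGAA or TTCGAA), the CCAAT box (CCAAT) bound by NF-Y, and the E2F motif (TTTCGCGC, TTTGGCGC, TTTCCCGC or TTTGCCGC). The CHR is known as the site through which the DREAM and MuvB complexes regulate late cell-cycle genes. Shown are the 4 genes that passed the test below and Sgo1, whose signal differed least. Capitals mark motif matches, and the start site follows base 250.
Cenpe, chr3:135212313-135212612, plus strand: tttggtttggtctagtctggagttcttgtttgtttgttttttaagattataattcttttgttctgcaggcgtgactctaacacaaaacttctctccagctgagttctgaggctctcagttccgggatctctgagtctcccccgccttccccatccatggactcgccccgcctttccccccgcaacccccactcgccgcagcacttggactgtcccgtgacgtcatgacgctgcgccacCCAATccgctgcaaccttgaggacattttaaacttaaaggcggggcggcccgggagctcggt
Cenpf, chr1:189688037-189688336, minus strand: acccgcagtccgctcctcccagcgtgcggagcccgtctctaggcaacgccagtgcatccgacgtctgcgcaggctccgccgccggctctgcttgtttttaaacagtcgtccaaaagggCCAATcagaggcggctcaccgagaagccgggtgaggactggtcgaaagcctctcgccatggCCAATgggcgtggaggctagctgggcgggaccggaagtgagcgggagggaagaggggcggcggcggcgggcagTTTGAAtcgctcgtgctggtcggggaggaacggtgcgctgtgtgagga
Knl1, chr2:119046869-119047168, plus strand: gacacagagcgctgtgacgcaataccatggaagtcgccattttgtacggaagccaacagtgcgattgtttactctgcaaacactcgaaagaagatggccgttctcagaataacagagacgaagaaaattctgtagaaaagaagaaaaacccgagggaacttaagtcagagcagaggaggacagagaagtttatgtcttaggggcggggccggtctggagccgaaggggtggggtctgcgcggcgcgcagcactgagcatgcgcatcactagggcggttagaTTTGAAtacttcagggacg
Mad2l1, chr6:66534971-66535270, plus strand: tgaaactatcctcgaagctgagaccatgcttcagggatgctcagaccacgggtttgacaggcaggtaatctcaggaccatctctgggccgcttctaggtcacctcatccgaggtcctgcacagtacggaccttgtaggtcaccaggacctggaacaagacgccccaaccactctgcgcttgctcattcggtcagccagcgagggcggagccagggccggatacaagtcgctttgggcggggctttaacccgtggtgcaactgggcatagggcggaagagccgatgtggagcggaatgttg
Sgo1, chr17:53689266-53689565, minus strand: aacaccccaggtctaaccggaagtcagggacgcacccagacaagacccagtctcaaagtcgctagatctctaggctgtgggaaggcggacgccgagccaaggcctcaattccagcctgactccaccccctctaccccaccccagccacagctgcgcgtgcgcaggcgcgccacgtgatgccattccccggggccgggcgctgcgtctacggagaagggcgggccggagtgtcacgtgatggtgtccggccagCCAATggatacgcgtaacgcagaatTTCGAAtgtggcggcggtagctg
A CHR match was found in 6 of the 9 windows (Cenpa, Cenpf, Ndc80, Spc25, Knl1 and Sgo1), against 19.2% of the 32851 windows of all genes. All 6 matches began between base 3 and base 32 after the annotated start. A CCAAT box was found in 5 of 9 windows (Cenpa, Cenpe, Cenpf, Spc25 and Sgo1) against 37.4% of all windows, and an E2F match in 0 of 9 against 2.26%. Nuf2 and Mad2l1 held none of the 3 motifs. A match describes these letters only. Of the 4 genes that rose, Cenpf and Knl1 hold a CHR match and Cenpe and Mad2l1 hold none. Among the other genes with a window, Cenpa, Ndc80, Spc25 and Sgo1 hold a match and Nuf2 holds none.

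The main peaks were broad and of like width, from 2394 bp at Spc25 to 3904 bp at Cenpf. Of all peaks in the table, 11.2% were at least as wide as the narrowest of them. The 10 main peaks held from 388 to 1915 reads in an H3K4 library, so the counting error of a single value was 2.29% to 5.08%. In the negative control they held from 85 to 201 reads. Scaled to peak length, the control libraries had the highest level at Cenpe (18.2 CPM per kb), followed by Sgo1 (17.4), Knl1 (15.6), Cenpa (15.02), Spc25 (12.02), Mad2l1 (11.5), Ndc80 (9.43), Cenpf (8.59), Nuf2 (7.68) and Spc24 (7.46), all in CPM per kb of peak. The ranges of the control libraries overlapped between Spc25 and Mad2l1 and between Nuf2 and Spc24, whose order is therefore not settled. All other neighbours in this order were separate in both control libraries, but some gaps were small against the counting error. The nearest control values were 8.28 at Cenpf and 8.25 at Nuf2, and 15.4 at Knl1 and 15.2 at Cenpa. At Ndc80 and Cenpf they were 9.18 and 8.90, all in CPM per kb. The order within these pairs is not settled either.

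**Figure D1:**
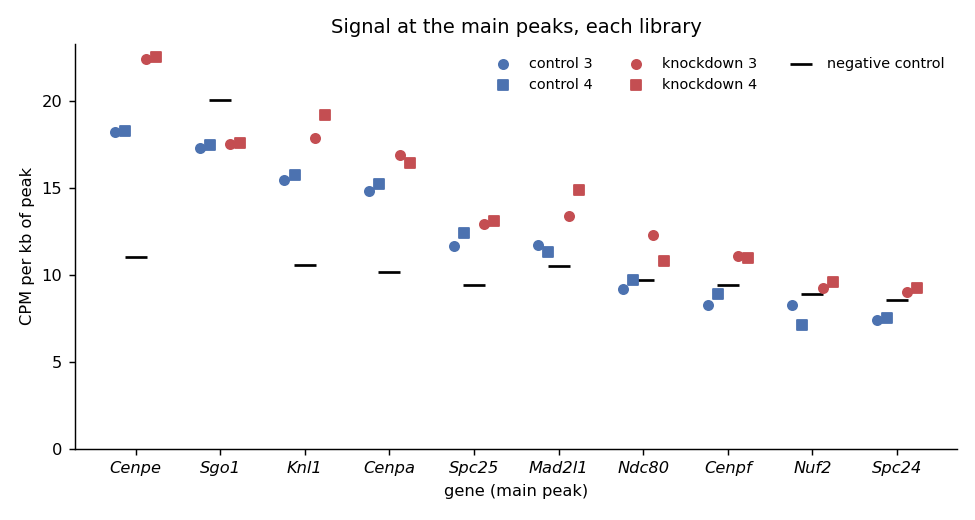
CPM per kb of the main peak (y axis) for the 10 genes (x axis), with 1 point per H3K4 library and a bar for the single negative control. Cenpe lies highest in the control libraries (18.2 CPM per kb) and Spc24 lowest (7.46 CPM per kb), and at Sgo1 the negative control (20.04 CPM per kb) lies above the H3K4 libraries.

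The same peaks were set against the single negative control library, whose antibody is not given. At the deposited scaling 0 of 10 genes reached a ratio of 2 in the control libraries, where 5.55% of the 58072 tested peaks did. Among the 5630 tested peaks within the range of widths of the 10, 24.2% did. The ratio of CPM + 1 ranged from 0.866 at Nuf2 to 1.64 at Cenpe, with a median of 1.03 for the 10 genes, 0.459 for all tested peaks and 1.59 for the 5630 tested peaks within the same range of widths. Cenpe, Cenpa, Knl1 and Spc25, 4 of the 10, had a control mean above the exact 95% binomial interval of the negative control, which covers counting error only. At Cenpe that interval ran from 24.8 to 36.2 CPM around 30.1 CPM, and the control mean was 49.98 CPM. The other 6 control means lay inside it. Sgo1, with 53.1 CPM (46.02 to 60.98), had the highest negative control value of the 10. In the knockdown libraries 5 of 10 means lay above the interval, the added gene being Mad2l1, and Cenpe alone reached a ratio of 2 (2.01), where 6.81% of tested peaks did. These ratios depend on scaling, because CPM divides every library by its own total. With TMM scaling over the 5 libraries all 10 genes passed a ratio of 2, from 2.07 at Nuf2 to 3.95 at Cenpe, and the share of all tested peaks that did rose to 18.9%. The single negative control allows no test.

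**Figure D2:**
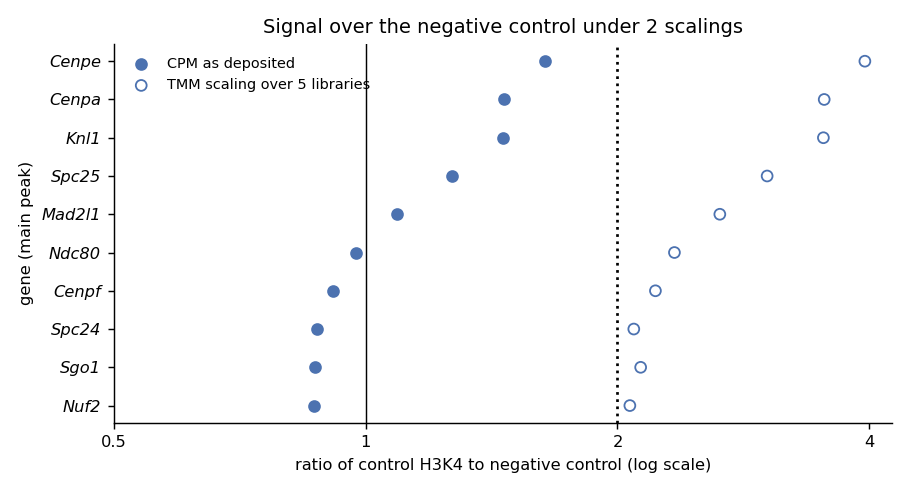
Ratio of the control H3K4 libraries to the negative control at each main peak (x axis, log scale), with CPM as deposited (filled) and with TMM scaling over the 5 libraries (open). The solid line marks equality and the dotted line a ratio of 2, which 0 of 10 genes reached with deposited CPM and 10 of 10 with TMM scaling.

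The comparison of knockdown with control asks whether H3K4 signal at these genes differs after the hairpin against Kdm5b. Of the 10 main peaks, all of which passed the filter on low values, 4 rose (Cenpe, Cenpf, Knl1 and Mad2l1), 0 fell and 6 did not pass an adjusted p of 0.05. Among all tested peaks 1.33% were called higher and 1.63% lower. Among the 4569 tested peaks within the height range of the 10 (mean of 24.5 to 55.8 CPM) 3.81% were called higher and 3.2% lower. The median log2 fold change was 0.28 for the 10 genes, or 1.21-fold, -0.14 for all tested peaks and 0.04 for those of like height. Fold changes are on the scale of log2(CPM + 1), and adjusted p-values (Benjamini-Hochberg) come from a limma fit of all tested peaks. The labels do not state whether replicate libraries derive from separate cultures or hearts, so p-values here reflect only how far these libraries spread, which may be technical. The peak of Kdm5b itself had 46.3 and 43.6 CPM in the control libraries and 40.7 and 46.2 CPM in the knockdown libraries, and H3K4 signal does not check the knockdown of its mRNA.

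Both genes of the fibrous corona, the outermost layer of the kinetochore, rose. Cenpe encodes a kinesin that carries chromosomes towards the spindle equator. Its main peak (chromosome 3, 134917235 to 134919977, GRCm39) held 49.9 and 50.1 CPM in control libraries 3 and 4, 61.4 and 61.6 CPM in knockdown libraries 3 and 4, and 30.1 CPM in the negative control. The knockdown libraries were both higher, and the libraries within a group lay within 0.24 CPM of each other. The log2 fold change was 0.29 (SE 0.07, adjusted p = 0.00443 by limma). Cenpf encodes a large coiled-coil protein of the corona that binds microtubules. Its peak (chromosome 1, 189418171 to 189422075) held 32.3 and 34.7 CPM in control libraries, 43.3 and 42.9 CPM in knockdown libraries, against 36.7 CPM in the negative control. Both control libraries were lower than the negative control and both knockdown libraries higher. This was the largest fold change of the 10, at 0.35 on the log2 scale (SE 0.08, adjusted p = 0.00263 by limma).

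The Ndc80 complex, the rod that grips the microtubule, has 4 subunits and none of their genes passed the threshold. Ndc80 and Nuf2 form the end that binds the microtubule. At Ndc80 (chromosome 17, 71832041 to 71834907) the control libraries held 26.3 and 27.7 CPM, the knockdown libraries 35.2 and 30.9 CPM and the negative control 27.7 CPM. The knockdown libraries were both higher and lay 4.26 CPM apart. The log2 fold change was 0.28 (SE 0.09, adjusted p = 0.0598 by limma). At Nuf2 (chromosome 1, 169357210 to 169360085) the values were 23.7 and 20.4 CPM in control libraries, 26.5 and 27.6 CPM in knockdown libraries, against 25.6 CPM in the negative control, a log2 fold change of 0.29 (SE 0.10, adjusted p = 0.0843 by limma). Here the control libraries were the pair that differed more. Spc24 and Spc25 form the opposite end, which anchors the complex to the inner layers. Spc24 (chromosome 9, 21669825 to 21672785) held 21.9 and 22.3 CPM in control libraries, 26.6 and 27.3 CPM in knockdown libraries, against 25.4 CPM in the negative control, a log2 fold change of 0.27 (SE 0.10, adjusted p = 0.103 by limma). Spc25 (chromosome 2, 69034747 to 69037141) held 27.8 and 29.7 CPM, 30.9 and 31.4 CPM, and 22.5 CPM in the same order. Its log2 fold change of 0.11 (SE 0.09) had a 95% interval from -0.07 to 0.29. Spc25 was the 1 subunit gene whose control mean lay above the negative control. The fold changes of Ndc80, Nuf2 and Spc24 lay between those of Knl1 and Mad2l1, at lower CPM and with larger SE.

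Both checkpoint genes rose. Knl1 encodes the scaffold on which the Bub proteins assemble at the outer kinetochore. Its peak (chromosome 2, 118876689 to 118879643) held 45.6 and 46.4 CPM in control libraries, 52.8 and 56.7 CPM in knockdown libraries, against 31.2 CPM in the negative control. The groups were separate by 6.44 CPM, and the log2 fold change was 0.25 (SE 0.07, adjusted p = 0.0361 by limma). Mad2l1 encodes Mad2, which binds and restrains the anaphase activator Cdc20. Its peak (chromosome 6, 66511536 to 66515228) held 43.2 and 41.7 CPM in control libraries, 49.3 and 54.9 CPM in knockdown libraries, against 38.8 CPM in the negative control. The knockdown libraries were again both higher, and differed from each other more than the control libraries did. The log2 fold change was 0.29 (SE 0.08, adjusted p = 0.0116 by limma).

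Of the 2 genes at the centromere itself, neither passed. Cenpa, the gene of the centromeric histone itself, had 46.6 and 47.8 CPM in control libraries, 52.99 and 51.6 CPM in knockdown libraries, against 31.97 CPM in the negative control (chromosome 5, 30823027 to 30826169). Its log2 fold change of 0.14 (SE 0.07, adjusted p = 0.303 by limma) had a 95% interval from -0.00086 to 0.29. Sgo1 encodes shugoshin, the protector of centromeric cohesin. Its peak (chromosome 17, 53995222 to 53997873) held 45.9 and 46.3 CPM in control libraries, 46.4 and 46.5 CPM in knockdown libraries, against 53.1 CPM in the negative control. The groups were separate by 0.10 CPM only, and the log2 fold change was 0.01 (SE 0.08), with a 95% interval from -0.14 to 0.16. Whether Sgo1 differs in response from the other genes was not tested.

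**Figure D3:**
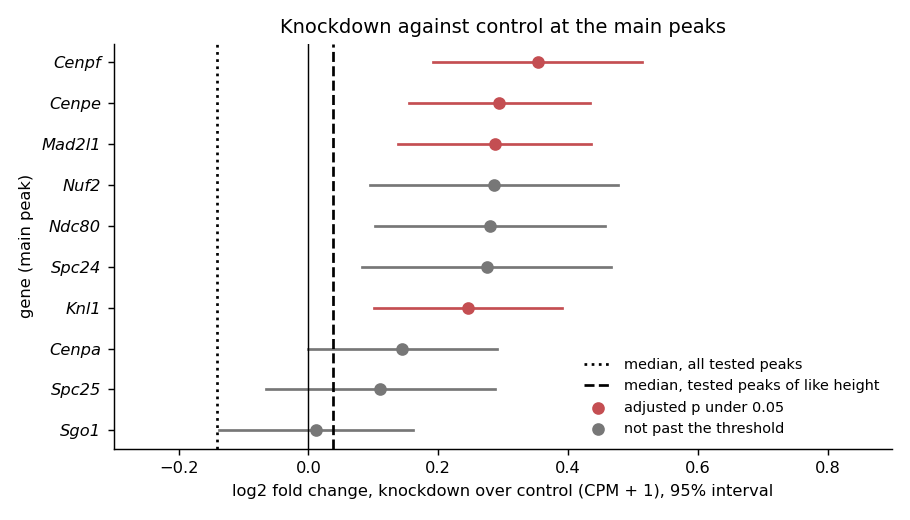
Log2 fold change of knockdown over control (x axis, CPM + 1) with its 95% interval from limma for each main peak (y axis). The values run from 0.01 at Sgo1 to 0.35 at Cenpf, the 4 genes past an adjusted p of 0.05 are red, and the vertical lines give the median of all tested peaks (-0.14, dotted) and of those of like height (0.04, dashed).

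In all 10 genes both knockdown libraries lay above both control libraries, though by only 0.10 CPM at Sgo1 and 1.18 CPM at Spc25. Such a separation held for 12.1% of all tested peaks and for 34.9% of those of like height. The calls were sensitive to single libraries and to scaling. With 1 library left out, the lone library of its group is assumed to vary like the pair of the other group. Without control library 3, 0 genes passed in limma, with 7 of 10 at an unadjusted p under 0.05 against 8.59% of all tested peaks. Without knockdown library 4, 0 passed as well, with 7 of 10 against 8.5%. Without control library 4, 2 passed (Cenpe and Cenpf), and without knockdown library 3, 1 did (Mad2l1). The 10 fold changes were positive in each of these 4 fits, which the separation of the groups fixes in advance. They were also positive with TMM, median centring and scaling on narrow background peaks. These 3 scalings moved all 10 values upwards, so the kept signs add no support. Those scalings gave medians of 0.38, 0.52 and 0.72 and 0 calls in limma. At an unadjusted p under 0.05 they had 8, 7 and 0 of the 10 genes, against 11.5%, 7.39% and 3.05% of all tested peaks (7 of 10 against 16.6% at the deposited scaling). Such shares count both directions and include low peaks. With a filter of 5 CPM at the deposited scaling it was 8 of 10 against 28.4%. Sgo1 turned negative with quantile and cyclic loess normalization, which called 6 and 7 of the 10 genes. Over all 58072 tested peaks these 2 settings called 602 and 526 higher. The median of all tested peaks moved from -0.14 to 0.10 with median centring, 0.0027 with quantile normalization, 0.0088 with cyclic loess, 0.013 with DESeq2 and 0.17 on narrow background peaks. Relative to it the median of the 10 genes was 0.42 higher at the deposited scaling. Median centring shifts a whole library and cannot change that difference, which was 0.24 to 0.55 under the others. Many of the peaks in this reference are low. Those of like height had a median of 0.04 at the deposited scaling and were not compared under the others.

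**Figure D4:**
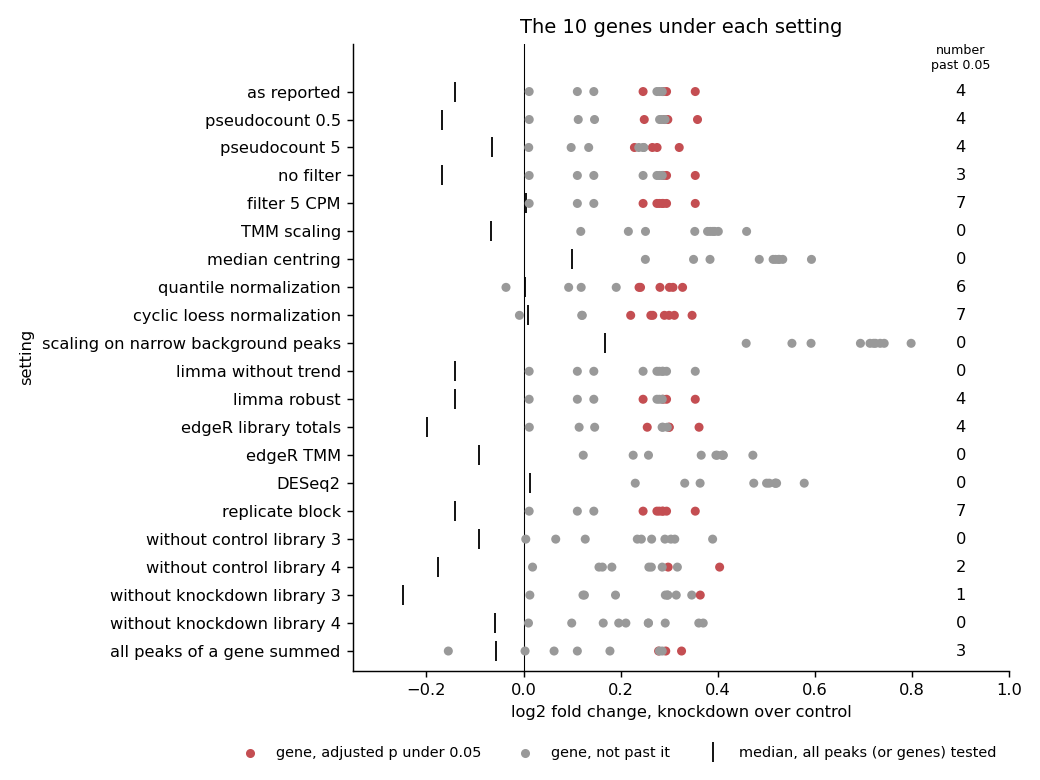
Log2 fold change of the 10 genes (points) under each setting (y axis), red where the adjusted p is under 0.05, with the median of all tested peaks, or genes where peaks are summed, as a bar and the number of genes past 0.05 at the right. The points lie above the bar except Sgo1 with quantile and cyclic loess normalization and Spc24 with peaks summed, and the number past the threshold runs from 0 to 7.

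The 18 other peaks belonged to 7 of the genes, 9 of them to Spc24, and were low. The highest had a mean of 7.35 CPM, and all 18 control means lay below the negative control. Of the 18, 0 were called higher (1.33% of all tested peaks were) and 0 had both knockdown libraries above both control libraries (12.1% of all tested peaks did), shares near that background. In 11 of the 18 both knockdown libraries lay below both control libraries, against 35.4% of all tested peaks. The median log2 fold change of the 18 was -0.25, against -0.14 for all tested peaks and 0.0043 for those passing a filter of 5 CPM. These low peaks were not compared with others of like height. Of the 18, 1 was called lower (1.63% of all tested peaks were), the peak assigned to Spc24 on chromosome 9 from 21679649 to 21681600. It held 10.6 and 8.05 CPM in control libraries, 5.54 and 5.18 CPM in knockdown libraries, against 19.6 CPM in the negative control, a log2 fold change of -0.69 (adjusted p = 0.00257 by limma). The gene Spc24 thus carried a main peak with higher values and a second peak that fell. With all peaks of a gene summed, its log2 fold change was -0.15 (adjusted p = 0.232 by limma), the opposite sign to its main peak.

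Other genes of the kinetochore and inner centromere were taken from a list of 50. Of these, 43 had a peak and 38 were tested: 7 rose, 0 fell and 30 had a positive fold change, with a median of 0.14. For the calls, the main peaks of all genes give the background, with 3.4% of 21835 called higher and 1.98% lower. The share with a positive fold change and the median are not given for those main peaks. The 30 positive values and the median of 0.14 thus have no matching background and do not set these genes apart from others. In the inner kinetochore 1 of 12 tested rose, Cenpt, whose product links centromeric DNA to the Ndc80 complex (34.6 ± 4.23 to 42.4 ± 1.76 CPM, SD, n = 2, log2 fold change 0.29, adjusted p = 0.0225 by limma). Cenpl, of the same layer, had 86.9 ± 6.81 and 98.07 ± 7.34 CPM (adjusted p = 0.0842 by limma). Cenpb, whose product binds centromeric DNA, had 64.3 ± 3.61 and 64.6 ± 2.11 CPM (adjusted p = 0.975 by limma). In the outer kinetochore 2 of 8 rose. They were Spdl1, an adaptor for dynein (55.3 ± 5.88 to 71.8 ± 0.960 CPM, log2 fold change 0.37), and Ska2, of a complex that stabilises microtubule attachment (97.03 ± 4.94 to 116 ± 1.82 CPM, 0.26).

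Among the checkpoint genes 1 of 8 rose, Cdc20, the target of Mad2 (36.7 ± 2.11 to 44.6 ± 1.65 CPM, log2 fold change 0.28, adjusted p = 0.028 by limma). Bub3 had 34.1 ± 1.13 and 40.06 ± 1.57 CPM (adjusted p = 0.118 by limma). The inner centromere had 3 of 8 rising. Sgo2a, the second shugoshin gene, rose from 34.6 ± 0.190 to 46.5 ± 2.69 CPM (log2 fold change 0.42, SE 0.08, adjusted p = 0.000126 by limma), while Sgo1 had 46.1 ± 0.322 and 46.5 ± 0.0664 CPM. Aurkb, the kinase of the chromosomal passenger complex, rose from 47.8 ± 1.24 to 61.6 ± 0.899 CPM. Birc5, named after its value was seen, encodes survivin of the same complex and rose from 51.1 ± 1.505 to 63.07 ± 4.21 CPM. Without control library 3, 2 of the list passed, and without knockdown library 4, 3 did. The count was 1 with TMM scaling and 0 with median centring.

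The libraries also differed in the markers of the cells they came from. The marker lists were fixed with earlier results of these data known. For the calls, the main peaks of all genes are again the background, with 3.4% called higher and 1.98% lower. All 10 cardiomyocyte marker genes had a peak, from 5.21 CPM at Myh7 upwards, and 5 of 10 had control means above the negative control. Their summed main peaks gave 1078 and 1081 CPM in the control libraries against 978 and 958 CPM after knockdown, and 4 of 10 fell. Epicardial markers gave 461 and 449 CPM against 574 and 572 CPM with 9 of 10 rising, and fibroblast markers 538 and 505 CPM against 629 and 624 CPM with 5 of 10 rising. Of the smooth muscle and pericyte markers 3 of 9 rose and 1 fell (380 and 360 CPM against 404 and 418 CPM), and of the endothelial markers 0 of 10 passed the test, with sums of 395 and 378 CPM against 423 and 418 CPM. Control means above the negative control were found for 1 of 10 epicardial, 1 of 10 fibroblast, 2 of 9 smooth muscle and pericyte and 0 of 10 endothelial markers, and the epicardial markers summed to 1022 CPM in the negative control. Leukocyte markers were near 0, with 4 of 10 genes having a peak and sums of 2.77 to 6.57 CPM. The 10 kinetochore and centromere genes summed to 363 and 367 CPM in the control libraries against 425 and 431 CPM after knockdown. In such bulk samples a change in the share of a cell type and a change of signal per cell cannot be told apart, and the part of cell composition in the rises above was not tested. Reads in peaks numbered 18710132 and 19001373 in the control, 21285387 and 31068085 in the knockdown and 3784381 in the negative control libraries. Peaks narrower than 500 bp with less signal than the negative control took 6.65% and 5.79% of these reads in the control and 5.63% and 3.64% in the knockdown libraries, and their part was not tested either.

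**Figure D5:**
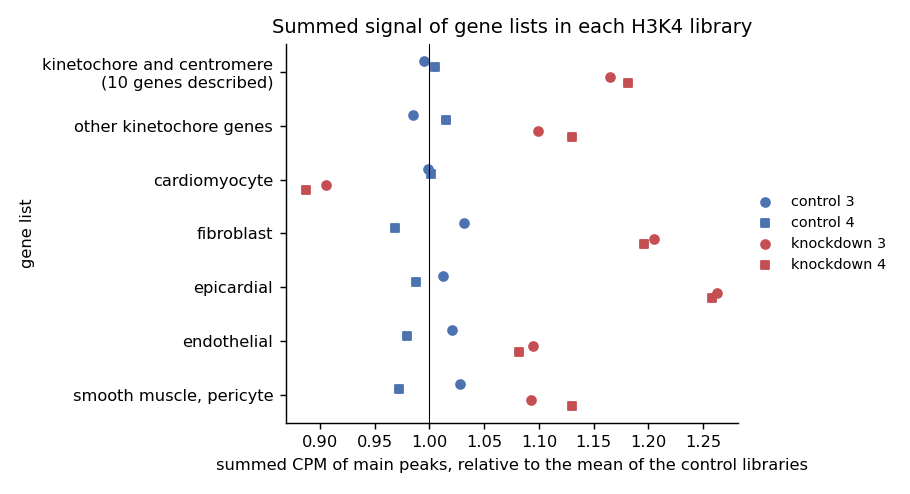
Summed CPM of the main peaks of each gene list (y axis) in each H3K4 library, relative to the mean of the control libraries (x axis, which does not start at 0). The 10 genes stand at 1.16 and 1.18 in the knockdown libraries, the epicardial markers at 1.26 and 1.26 and the cardiomyocyte markers at 0.906 and 0.888, and leukocyte markers, near 0, are left out.

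The genes whose main peaks lay nearest to the median profile of the 10 were Pimreg, Lrr1, Vps72, Rsrc1 and Rab9. Nearness was the Euclidean distance over the 5 libraries in log2(CPM + 1), from 0.112 at Pimreg to 0.130 at Rab9. At Pimreg the control libraries held 37.7 and 39.7 CPM, the knockdown libraries 47.8 and 44.3 CPM and the negative control 30.1 CPM. Its log2 fold change was 0.24 (adjusted p = 0.0606 by limma), and the other 4 did not pass either. Since nearness was measured over these same libraries, a fold change near that of the 10 was fixed in advance by the choice.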

How the data were processed

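The authors deposited CPM values of peaks by library in a single table, in which each peak has its position and a gene symbol. Trim Galore trimmed the reads and the build was GRCm39, per the submitters' processing notes. Aligner, peak caller, counting tool and rule of gene assignment are not given in the sources used here. Dividing the deposited CPM by the smallest step of its column gave whole reads for 100% of values (relative tolerance 1e-06). All 5 value columns were used. In the table used here 2 lines are empty.

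The 58072 peaks reaching 1 CPM in 2 or more of the 4 H3K4 libraries were tested as log2(CPM + 1) with limma 3.58.1 (lmFit, eBayes with trend, 2-sided, R 4.3.3), Benjamini-Hochberg adjustment with 0.05 as the threshold. The fit estimated infinite prior degrees of freedom: a peak's spread is that of peaks of equal height. The pseudocount understates changes of low peaks, and since CPM has a fixed sum, a genome-wide change of the mark cannot be seen. On the recovered reads edgeR 4.0.16 (quasi-likelihood, library totals) called 634 peaks higher and 712 lower, against 773 and 947 with limma. DESeq2 1.42.0, other scalings, filters and pseudocounts and each library left out were alternatives. The scripts were tested on simulated data. The 10 genes, the list of 50, the markers and the tests were chosen with earlier results of these data known. Named from the list of 50 were the 2 genes of each role with the smallest p, of which 1 is not reported here, and nearest genes exclude Gm, Rik and unnamed loci. Sequences are from RefSeq (GRCm38.p6).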

Additional observations from a re-analysis of the deposited data

How the results depend on the processing

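Of the 10 genes, 4 passed as reported, 4 with either other pseudocount (0.5 or 5), robust limma and edgeR with library totals, 3 without a filter or with all peaks of a gene summed, and 6 with quantile normalization or a threshold of 0.10. The count was 7 with a filter of 5 CPM and with cyclic loess, 2 at a threshold of 0.01, and 0 with TMM scaling, median centring, scaling on narrow background peaks, limma without a trend, edgeR with TMM and DESeq2. With 1 library left out the count past the adjusted threshold ranged from 0 to 2. At an unadjusted p under 0.05, limma without a trend had 1 of 10 (14.2% of all tested peaks), edgeR with TMM 7 (11.8%) and DESeq2 8 (9.22%). Among peaks 2-fold above the negative control none of the 10 was left, so that setting gave no value.

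The other kinetochore genes that rose numbered 7 of 38 tested as reported. It was 7 as well with quantile normalization, cyclic loess, robust limma and edgeR with library totals. The same count came without a filter, with a filter of 5 CPM and with either other pseudocount. With all peaks of a gene summed 6 rose and 1 fell. The count was 1 with TMM scaling or edgeR with TMM. It was 0 with median centring, scaling on narrow background peaks, limma without a trend and DESeq2. Among peaks 2-fold above the negative control only 2 of these genes were left to test, and 1 of them rose. Over all peaks, 773 were higher and 947 lower as reported. With a filter of 5 CPM, 1094 of 19168 tested peaks were higher and 1076 lower. Quantile normalization gave 602 and 797, and cyclic loess 526 and 856. The counts were 55 and 34 with TMM, 51 and 38 with edgeR and TMM, 28 and 3 with median centring, 16 and 3 with DESeq2, 0 and 0 without a trend or on narrow background peaks, 481 and 14 among peaks 2-fold above the negative control, 351 and 355 at a threshold of 0.01, 1146 and 1586 at 0.10, and 155 to 371 and 185 to 476 with 1 library left out.

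The replicate block on the column numbers gave 7 of the 10 genes, 13 other kinetochore genes and 1578 higher and 2275 lower peaks. The numbers are shared labels only: same-numbered deviations had r = 0.118 over 58072 peaks, from 2 pairs. The signs that turned were those of Sgo1 (-0.0084 with cyclic loess, -0.036 with quantile normalization) and Spc24 (-0.15 with all its peaks summed, which adds its low peaks). Genes with a ratio of 2 over the negative control numbered 0 as reported and 10 with TMM scaling over 5 libraries, and 1 gene reached 1.5. Apart from these constructions the cause was not tested. Depth in the negative control (85 to 201 reads per main peak) limits every ratio to it.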
